A study of Mus musculus with 52 samples.

Results

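The prostate of male mice that lack the long noncoding RNA locus Tug1 was compared with the prostate of wild-type males. The samples were chosen by their tissue label and make up 5 of the 52 samples of the series, of which 3 were wild type and 2 were homozygous for the deletion (Tug1-/-). All 5 were labelled as male, of the strain Tug1_tm1.1Vlcg on a mixed C57BL/6J/129S6 background that the labels further give as N3-C57BL/6J and without Neo. The allele keeps the start of Tug1 as far as its first exon and carries lacZ instead of the rest, and the selection cassette was removed by a cross to a strain that expresses Cre from the CMV promoter. The deletion is part of the inherited allele and was not made by Cre, so that it is present in every cell of the animal and not in the prostate alone. The age of the animals and the lobe or lobes of the gland taken were not given in the sources used here.

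Poly(A)-selected RNA was sequenced, and the data held for prostate are the authors' mean levels of each genotype in TPM, a unit that gives a transcript's abundance relative to all others after division by gene length. No level of a single sample is held, so no spread between mice, no standard deviation and no test can be given, and every difference below is a ratio of 2 means without a replicate check. A log2 ratio is the Tug1-/- mean over the wild-type mean after 1 TPM was added to each, which understates the difference of low genes. Limits of 1.2-fold, 1.5-fold, 2-fold and 3-fold apply to that ratio. Fold values given for single genes are ratios of the means without the added 1 TPM. Of 23277 genes listed for prostate, 14689 reached a mean of 1 TPM in at least 1 genotype and an authors' mean normalised count of 10, and these were compared. Where a pair of levels follows a gene, the wild-type mean comes first and the Tug1-/- mean second. The normalised counts summed to 4.11e+07 per library on average, and the depth of single libraries is unknown.

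Tug1 is transcribed from the minus strand of chromosome 11, and its start lies beside that of the protein-coding gene Morc2a, which runs the opposite way. The prostate is a gland of secretory luminal cells that rest on basal cells within a stroma of smooth muscle and fibroblasts. Its luminal cells depend on androgen and release large amounts of a few proteins into the seminal fluid, so that a small number of transcripts dominates the RNA. Mouse prostate is made of lobes that differ in the proteins they secrete, and it adjoins the seminal vesicle, the urethra, the bladder and fat.

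Transcripts known from prostate were among the most abundant. Pbsn, the androgen-dependent secretory protein probasin, was the most abundant gene, with a mean of 65995 TPM in wild type against 58591 TPM in Tug1-/-. Next in wild type came 9530053A07Rik with 49042 and 43115 TPM, Ren1 (renin) with 21513 and 16904 TPM, Tgm4 (the prostate transglutaminase) with 20666 and 20140 TPM, and 9530002B09Rik with 20516 and 19916 TPM. Gm23935, mt-Co1, CT010467.1, mt-Cytb and Eef1a1 complete the 10 most abundant genes of wild type. The 10 most abundant genes held 23.6% of all TPM in wild type and the 10 most abundant of Tug1-/- held 25.2%. The prostate transcription factor gene Hoxb13 (395 and 375 TPM) was high in both. Secretory genes known from the ventral and lateral lobes were low in both, with wild-type means of 9.65 TPM for Msmb, 5.39 TPM for Spink1, 1.64 TPM for Sbp and 0.27 TPM for Sbpl.

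Most genes differed little. The median log2 ratio was 0.03, the central 90% of genes lay between -0.25 and 0.42, and 14194 genes (96.6%) differed by less than 1.5-fold. At least 2-fold higher in Tug1-/- were 137 genes, or 0.933% of those compared, and at least 2-fold lower were 36 genes, or 0.245%. Of the 137 higher genes, 24 were immunoglobulin genes. Of the 36 lower genes, 18 were ribosomal or short structural RNAs or genes grouped with them below, 2 were immunoglobulin variable genes, and 16 were of other kinds. With the ribosomal and short RNAs left out and the TPM rescaled, a choice made after seeing the data, 19 genes were at least 2-fold lower. By the same rule the share of genes 2-fold apart in either direction was 0.473% in eyes, 0.419% in heart, 0.692% in liver, 0.491% in mouse embryonic fibroblasts (MEFs, cultured cells) and 1.45% in spleen.

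**Figure D1:**
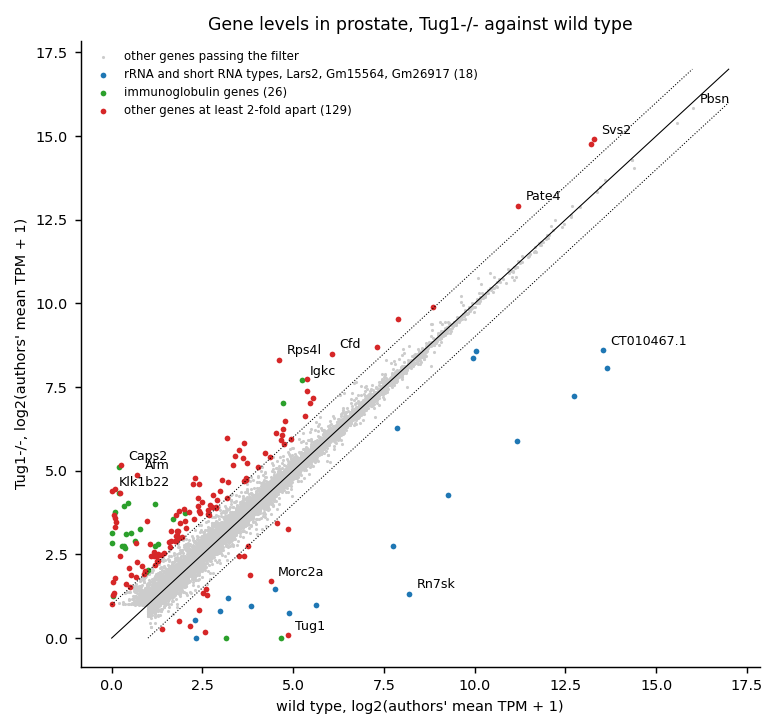
Mean level of each gene in wild-type prostate (x axis) and Tug1-/- prostate (y axis), both as log2(authors' mean TPM + 1), with a solid line of equality and dotted lines 2-fold to either side. The 129 red, 26 green and 18 blue points lie at least 2-fold apart, and the blue ribosomal and short RNAs all lie on the wild-type side.

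Ribosomal and short structural RNAs stood apart in the wild-type mean. These RNAs lack a poly(A) tail or carry one only briefly, and poly(A) selection removes most of them. The genes annotated as rRNA, mitochondrial rRNA, snRNA, snoRNA, scaRNA, misc_RNA or miRNA, together with Lars2, Gm15564 and Gm26917, summed to 40304 TPM (4.03% of the total) in wild type and to 4349 TPM (0.435%) in Tug1-/-. The 3 added genes were put in this group after their values were seen, and Lars2, which encodes a mitochondrial leucyl-tRNA synthetase, holds a stretch that resembles ribosomal RNA. CT010467.1, annotated as rRNA, had a mean of 11824 TPM in wild type against 389 TPM in Tug1-/-. Rn7sk, the 7SK RNA that binds an elongation factor of RNA polymerase II, had 292 and 1.51 TPM, the lowest log2 ratio of all named genes (-6.87). Gm23935 (12784 and 271 TPM), Gm24187 (6845 and 148 TPM), Mir6236 (2307 and 58.1 TPM), Gm15564 (216 and 5.77 TPM), Lars2 (614 and 18.5 TPM) and the snRNA Gm24265 (48.2 and 0.97 TPM) were 33.2-fold to 49.4-fold lower in Tug1-/-. The mitochondrial rRNA mt-Rnr1 (984 and 330 TPM) was lower by less, with a log2 ratio of -1.57, and Gm26917 had the same rounded value.

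The same group summed to nearly equal shares in the genotypes of every other tissue. The wild-type and Tug1-/- sums were 9541 and 9087 TPM in eyes, 18533 and 19544 TPM in heart, 4153 and 4930 TPM in liver, 5647 and 6610 TPM in MEFs, 8744 and 8414 TPM in spleen, and 6895 and 7584 TPM in testes. The wild-type prostate mean was thus the highest of the 14 means. How this content is spread over the 3 wild-type mice cannot be seen in means, so that its relation to other genes over mice was not tested. With these RNAs left out and the TPM rescaled, 125 genes were at least 2-fold higher in place of 137. The messenger RNAs of the cytosolic ribosome were near equal. Of 77 ribosomal protein genes none was 2-fold apart, 70 had a log2 ratio below 0, and their median was -0.05 with a range from -0.15 to 0.03.

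Tug1 itself followed the genotype labels. Its mean stood at 27.8 TPM in wild type against 0.06 TPM in Tug1-/-, which is 0.199% of the wild-type mean, for a log2 ratio of -4.77. Tug1 was annotated at chr11:3639785-3649673 (GRCm38, minus strand). Its level in wild-type prostate lay between those of the other tissues, which ranged from 10.1 TPM in liver to 57.5 TPM in eyes, and its log2 ratio there ranged from -5.69 in spleen to -3.46 in liver.

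Near Tug1, the divergent neighbour Morc2a was lower and a group of genes 100 to 200 kb away at lower coordinates was higher. The start of Morc2a, a chromatin-silencing ATPase of the MORC family, is 0.179 kb from that of Tug1, and the 2 annotated genes overlap at their starts. Its mean stood at 19.9 TPM in wild type against 2.25 TPM in Tug1-/-, a log2 ratio of -2.69. The log2 ratio of Morc2a was below 0 in all 6 other tissues too, from a near-equal -0.16 in testes to -2.26 in liver. The prostate ratio lay below all of them.

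Within 1 Mb of the Tug1 start, 47 other genes were listed and 32 passed the filter. Of these 32, 2 were at least 2-fold higher and Morc2a alone was at least 2-fold lower, beside 0.933% and 0.245% of all genes. Gm11946, a noncoding gene that overlaps Smtn on the other strand, had 1.44 TPM in wild type against 4.72 TPM in Tug1-/- (log2 ratio 1.23). Selenom, a selenoprotein of the endoplasmic reticulum, had 29.7 and 60.6 TPM (1.01), just past the limit. At a limit of 1.5-fold, 6 genes were higher, against 2.73% of all genes, and 5 of the 6 lay at lower coordinates than Tug1. The further 4 included the ubiquitin ligase gene Rnf185 (83.4 and 159 TPM, 0.92) and its divergent neighbour 8430429K09Rik (2.55 and 6.07 TPM, 0.99). The others were the smooth muscle gene Smtn (52.8 and 95.8 TPM, 0.85) and the lipid-binding gene Osbp2 (3.35 and 6.59 TPM, 0.80). Without the added 1 TPM, 8430429K09Rik had a ratio of the means of 2.38. The sources do not say whether counting used the strand, so reads of Gm11946 and Smtn, or of Tug1 and Morc2a, cannot be told apart where they overlap.

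Apart from the genes named above, Osbp2 among them, the genes that passed the filter in between and beyond had log2 ratios near 0. Inpp5j, which lies between Selenom and Rnf185, had 0.97 and 1.35 TPM. Its log2 ratio was 0.25, which the added 1 TPM compresses, and its ratio of the means was 1.39. Pla2g3 beside it was under 1 TPM in both genotypes. Of the 32 genes, 25 differed by less than 1.2-fold, and over all genes compared 84.8% did. The median of the 32 was 0.08.

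Set beside the other tissues, these neighbours varied. Rnf185 was higher in Tug1-/- in all 6, from 0.79 to 1.08, and Selenom from 0.49 to 1.08. 8430429K09Rik was higher in all 6 as well, from 0.37 to 0.83, below its prostate value. Smtn and Gm11946 spread widely, from -0.18 in spleen to 2.91 in testes for Smtn and from 0.25 in spleen to 2.36 in testes for Gm11946. Osbp2 was higher in prostate, near equal in spleen (0.06), eyes (0.18) and MEFs (-0.04), and lower in heart (-2.06), liver (-0.68) and testes (-0.33). No difference between tissues was tested, since means without a spread allow no test.

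**Figure D2:**
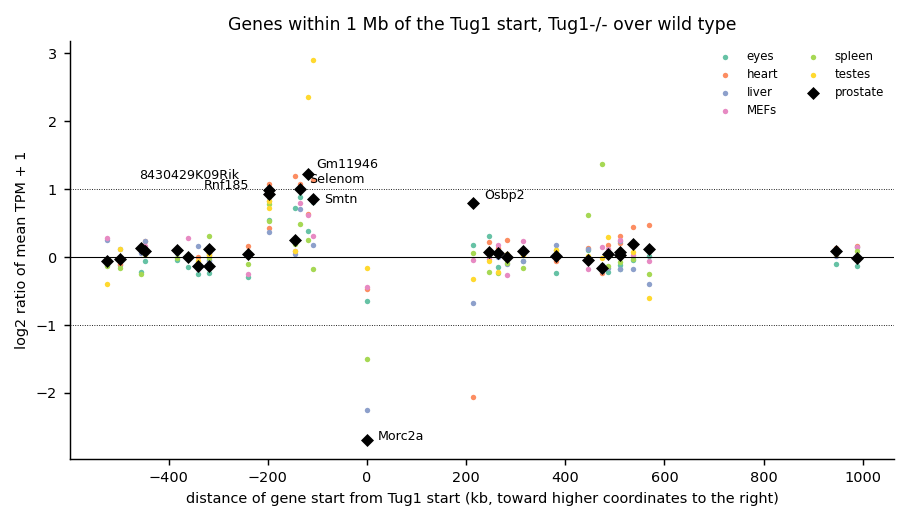
Log2 ratio of mean TPM + 1 (Tug1-/- over wild type, y axis) of the 32 genes within 1 Mb of Tug1 that passed the filter in prostate, by the distance of their start from the Tug1 start in kb (x axis). Black diamonds are prostate and coloured points 6 other tissues, and dotted lines mark 2-fold. Morc2a lies lowest at -2.69. Of the 6 genes at least 1.5-fold higher, 5 lie 100 to 200 kb to the left, and Osbp2 (0.80) lies 214 kb to the right.

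Beyond 1 Mb of Tug1, the genes with the highest ratios were nearly silent in the wild-type mean. Caps2, a calcium-binding protein gene, had 0.19 TPM in wild type against 34.7 TPM in Tug1-/-, a log2 ratio of 4.91. Its neighbour Glipr1l3, whose start lies 3.29 kb away, had 0.17 and 19.2 TPM (4.11). Afm, the gene of the vitamin E carrier afamin, had 0.63 and 28.6 TPM (4.18). Gm5538 (0.04 and 11.9 TPM), Gm5709 (0.09 and 10.2 TPM) and 4930453H23Rik (0.06 and 20.8 TPM) had ratios of 3.63, 3.36 and 4.36. Ffar3, a receptor for short-chain fatty acids, had 0.07 and 9.02 TPM (3.23). Klk1b22, one of a large family of near-identical kallikrein genes whose reads may be split uncertainly, was listed at 0 in the wild-type mean and at 20.1 TPM in Tug1-/-. The immunoglobulin light chain gene Igkv6-23 had 0.15 and 33.8 TPM.

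Of the 15 highest genes, 4 more were less low in wild type and higher in Tug1-/-, though Map10 was just under 1 TPM in wild type. Rps4l, annotated as a transcribed processed pseudogene of a small-subunit ribosomal protein, had 23.6 and 319 TPM (3.70), and reads it shares with its parent gene may be split uncertainly. Cyp2e1, an oxidase of ethanol and fatty acids, had 8.08 and 62.2 TPM (2.80). The microtubule-associated protein gene Map10 had 0.97 and 10.3 TPM (2.52), and Nefh, the heavy neurofilament subunit, had 3.95 and 26.7 TPM (2.48). Nefh lies on chromosome 11 within 2 Mb of the Tug1 start. In that window 3 genes, Nefh among them, were at least 2-fold higher, beside 0.933% of all genes. The window's median log2 ratio was 0.05, against 0.03 for all genes. Nefh is named for its high ratio, so that its place near Tug1 is no finding. Igkc and Cfd, the other 2, are described with their lists. In the other tissues Rps4l was higher in Tug1-/- in all 6, from 0.19 in testes to 3.53 in spleen. Caps2 stayed between -0.02 and 0.31, Afm between -0.19 and 0.87, and Nefh between -0.26 and 0.46. Klk1b22 reached 2.71 in eyes, 1.36 in testes and 1.09 in spleen, Cyp2e1 2.18 in eyes, and Map10 1.86 in liver and 1.05 in spleen.

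Among the 15 lowest genes, 10 belong to the ribosomal and short RNA group, and Tug1, Morc2a, Igkv6-32, Gprc5a and Ccdc68 are the rest. Igkv6-32, an immunoglobulin light chain gene, had 24.4 TPM in wild type and was listed at 0 in Tug1-/-. Gprc5a, an epithelial receptor induced by retinoic acid, had 12.9 and 2.67 TPM (-1.92) and was between -0.32 and 0.34 in the other tissues. Ccdc68 had 27.8 and 8.56 TPM (-1.59).

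**Figure D3:**
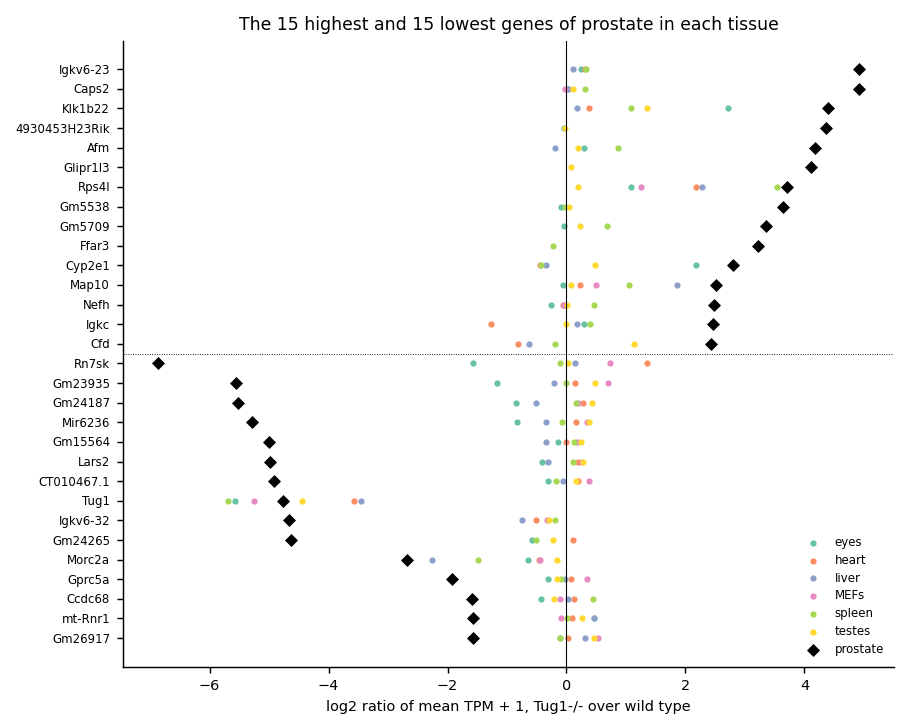
Log2 ratio of mean TPM + 1 (Tug1-/- over wild type, x axis) of the 15 highest and 15 lowest genes of prostate (rows) in prostate (black diamonds) and in 6 other tissues (coloured points, absent where the gene is not listed). Tug1 and Rps4l have points of other tissues close to the diamond, while Caps2 at 4.91 and Rn7sk at -6.87 do not.

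Several of these genes lay side by side on a chromosome. Leaving out the immunoglobulin genes, 38 of the 147 genes that were 2-fold apart (25.9%) had another such gene starting within 200 kb, where 618 of the other 14516 (4.26%) did, a grouping made after the values were seen that includes Tug1, its neighbours and ribosomal RNAs. Many of the 38 were under 1 TPM in wild type and passed the filter through Tug1-/- alone, so that these shares are a description and support nothing. The 38 genes formed 16 groups. On chromosome 5, Afp (alpha-fetoprotein, 0.03 and 2.21 TPM), Gm43449 (0.07 and 10.9 TPM) and Afm were all higher, and 3 genes around them lay between -0.16 and 0.22. On chromosome 7, Ffar2 (0.17 and 4.48 TPM) and Ffar3 were higher beside 12 genes between -0.36 and 0.29. On chromosome 6, Gprc5a and the heme-binding protein gene Hebp1 (10.3 and 4.51 TPM) were both lower. Gm5538 and Gm5709 on chromosome 3, and the carboxylesterase genes Ces1d (24.5 and 59.7 TPM) and Ces1e (2.01 and 6.28 TPM) on chromosome 8, were further groups, and the 1 gene beside Ces1d and Ces1e that passed the filter had a ratio of 0.95. On chromosome X, Xlr3a (5.16 and 1.45 TPM) and Xlr4b (3.50 and 0.28 TPM) were lower and Xlr3c (0.05 and 1.52 TPM) was higher. Genes beside other groups also came near 2-fold, with ratios from -0.52 to 0.93 beside Gm17689 and from 0.08 to 0.84 beside Defb13. Some groups are gene families with similar sequence, in which reads may be shared.

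The secretory, luminal and basal lists had medians close to 0. Of 12 genes of the prostate secretory list, 11 passed the filter and none was 2-fold apart, with a median log2 ratio of 0.06 against 0.03 for all genes. Their values ran from -0.51 for Spink1 to 0.86 for Msmb (9.65 and 18.4 TPM), and Defb50, a beta-defensin, had 1099 and 1748 TPM. All 13 luminal and androgen-axis genes passed, with a median of -0.02. The keratin gene Krt8 had 539 and 495 TPM, Krt18 1639 and 1614 TPM, and Foxa1 183 and 161 TPM. Fkbp5, a hormone-responsive gene, was the exception at 20.4 and 36.4 TPM (0.81). Basal epithelial genes had a median of -0.06, with Krt5 at 97.2 and 90.2 TPM and Trp63 at 9.86 and 9.55 TPM. Genes of polyamine and citrate metabolism, for which the prostate is known, had a median of 0.01, and lipid synthesis genes 0.04.

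A set of 54 genes had at least 100 TPM in wild-type prostate and a level more than 20-fold lower in every other wild-type tissue listed, limits set after the values were seen. Of these, 45 differed by less than 1.5-fold, where 96.6% of all genes did. The 3 that were at least 2-fold higher were Svs2, Svs5 and Pate4, beside 0.933% of all genes. The 4 that were at least 2-fold lower, beside 0.245% of all genes, were CT010467.1, Gm23935, Gm24187 and Rn7sk, which entered the set through the same wild-type mean in which they are high, so that their place in it is no finding.

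Svs2, Svs5 and Pate4 were about 3-fold higher together, apart from the other seminal vesicle genes. These encode proteins of the seminal fluid and are made in the seminal vesicle and also in the anterior prostate. Svs2, the main protein of the copulatory plug, had 10039 TPM in wild type against 30716 TPM in Tug1-/-, a ratio of the means of 3.06. Svs5 had 9363 and 27896 TPM (2.98), and Pate4 had 2346 and 7743 TPM (3.30). Svs4 had 454 and 674 TPM. Ceacam10 had 13.3 and 13.5 TPM. The other 6 genes were at low levels and had ratios below 0. Of these, Svs6 had 61.2 and 43.1 TPM, Svs1 20.8 and 14.6 TPM, Sva 18.8 and 13.4 TPM, Svs3a 17.6 and 12.1 TPM, and Spinkl 14.7 and 8.51 TPM. Of the 11 genes on the list 3 were at least 2-fold higher and none 2-fold lower, beside 0.933% and 0.245% of all genes. The list's median was -0.46, its mean 0.21, and its summed level 22364 TPM in wild type against 67144 TPM in Tug1-/-, so that median and mean differ in sign. Also on chromosome 2 near Svs2, the protease inhibitor genes Slpi (5.94 and 18.4 TPM) and Wfdc12 (4.91 and 0.13 TPM) were 2-fold apart in opposite directions.

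Among lists of adjoining epithelia and organs, urothelial genes had a median of -0.07, with Upk1b at 404 and 391 TPM. Of the 10 genes of epididymis and vas, 2 were listed and Crisp1 alone passed the filter, at 12.7 and 11.02 TPM. Of 7 spermatid genes Prm1 alone was listed, under 1 TPM. The proximal and urethral epithelial list had a median of 0.50 with all 7 genes above 0, summing to 17.5 and 29.7 TPM. Psca alone was past 2-fold, against 0.933% of all genes, at 0.58 and 6.18 TPM. Psca and Ppp1r1b (0.83 and 2.30 TPM) were under 1 TPM in wild type and passed the filter through Tug1-/- alone. The count past 2-fold and the signs of these 2 genes therefore carry no support. With a minimum of 5 TPM the median of that list was 0.20.

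Adipocyte genes were higher as a group. All 8 passed the filter and had log2 ratios above 0, 6 of 8 were at least 2-fold higher against 0.933% of all genes, and the median was 1.77. Cfd, the complement protease adipsin, had 66.2 TPM in wild type against 361 TPM in Tug1-/- (2.43). Cidec, a lipid droplet protein, had 11.5 and 55.5 TPM (2.18), the hormone gene Adipoq had 9.65 and 42.7 TPM (2.04), and Fabp4, a fatty acid carrier, had 11.4 and 40.4 TPM (1.74). Retn (resistin) was at 4.19 and 17.04 TPM and Plin1 at 2.66 and 9.89 TPM. Lep (leptin) and Plin4, at 0.89 and 0.83, were short of 2-fold. The summed level of the list was 121 TPM in wild type against 555 TPM in Tug1-/-. In a bulk tissue, more cells of a type and more RNA per cell cannot be told apart, nor can fat that lies on the gland from fat within it. The list's median was 1.48 in eyes, 0.35 in testes, 0.34 in liver, -0.19 in spleen and -0.79 in heart, so that prostate had the highest value.

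Most immunoglobulin genes that passed the filter were higher. Of 26 that passed, 17 variable and 7 constant genes were at least 2-fold higher, against 0.933% of all genes, and 2 variable genes were at least 2-fold lower, against 0.245%. Of these 26 genes, 18 were under 1 TPM in 1 of the genotypes and passed the filter through the other alone, so that their count carries no support. The summed level of all immunoglobulin genes listed, passing or not, was 130 TPM in wild type against 645 TPM in Tug1-/-. Igkc, the kappa constant region, had 37.2 and 209 TPM (2.46), Ighm, the constant region of IgM, had 25.2 and 128 TPM (2.30), and Jchain, which joins IgM and IgA chains, had 2.65 and 12.8 TPM (1.92). Mzb1, a plasma cell chaperone, had 0.58 and 1.41 TPM. Cd79a (1.02 and 1.09 TPM), Cd79b (1.42 and 1.82 TPM) and Ms4a1 (0.80 and 0.75 TPM), which mark B cells, were near or under 1 TPM in both genotypes, a level at which the added 1 TPM compresses any ratio. The 2 lower genes were Igkv6-32 and Ighv3-1 (7.91 TPM in wild type and listed at 0 in Tug1-/-). The immunoglobulin sums were 470 and 212 TPM in heart, 9.09 and 4.59 TPM in MEFs, 49.1 and 59.6 TPM in eyes, 64.1 and 81.04 TPM in liver, 128 and 129 TPM in testes, and 105729 and 125623 TPM in spleen.

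Macrophage and antigen presentation genes had ratios above 0, most of them short of 2-fold. Of 9 macrophage genes 8 passed, all 8 had ratios above 0, 2 were at least 2-fold higher against 0.933% of all genes, and the median was 0.63, or 0.61 over all 9. The scavenger receptor genes Mrc1 (6.41 and 16.4 TPM, 1.23) and Cd163 (3.16 and 8.81 TPM, 1.24) led, and the complement genes C1qa (50.4 and 79.7 TPM), C1qb (48.0 and 73.8 TPM) and C1qc (25.4 and 39.1 TPM) had ratios of 0.61 to 0.65. All 7 MHC class II genes had ratios from 0.26 to 0.52 and a median of 0.47, with Cd74 at 218 and 312 TPM. T cell genes were mostly under 1 TPM, with 2 of 8 passing. Interferon-stimulated genes had a median of 0.47 over 8 genes, and none was 2-fold apart, and that median was 0.27 with a minimum of 5 TPM and 0.72 with a pseudocount of 0.1 TPM.

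Complement and acute phase genes had a median of 0.81 over the 6 of 8 genes that passed and of 0.74 over all 8. Hp, the hemoglobin-binding protein haptoglobin, was 2-fold higher at 9.24 and 35.2 TPM (1.82). Lcn2 had 12.6 and 25.4 TPM, and C3 had 37.3 and 58.7 TPM. The erythroid list, a gauge of blood in the tissue, had a median of 0.71 and summed to 161 and 292 TPM, with Hbb-bs at 101 and 196 TPM.

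Stromal genes differed less. The fibroblast list had a median of 0.32, and its highest members were Lum (12.3 and 23.4 TPM) and Fbln1 (10.4 and 18.0 TPM), while the collagen gene Col1a1 had a log2 ratio of 0.28. Smooth muscle genes had a median of 0.09, with Acta2 at 2325 and 2467 TPM and Myh11 at 948 and 916 TPM, and Smtn, described above, was the one member over 0.8. Endothelial genes had a median of 0.14 and Schwann cell genes 0.00. Skeletal muscle genes had a median of 0.03, with Acta1 at 478 TPM in both.

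**Figure D4:**
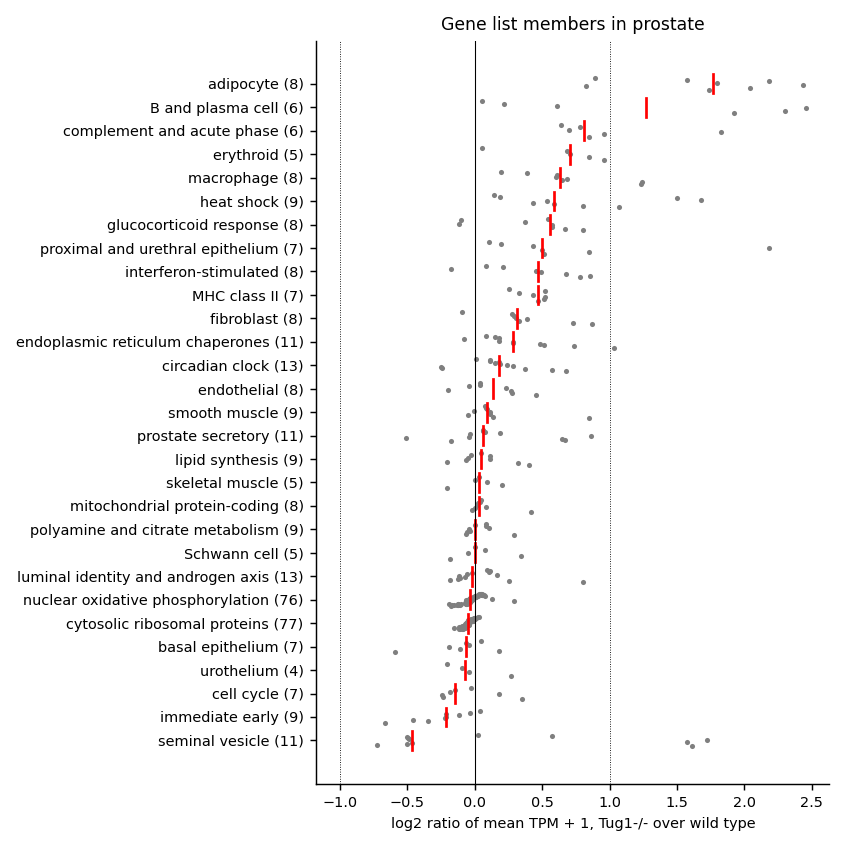
Log2 ratio of mean TPM + 1 (Tug1-/- over wild type, x axis) of each member (grey points) of the gene lists with at least 4 members passing the filter (rows, number passing in brackets), with the list's median in red and dotted lines at 2-fold. The adipocyte median of 1.77 is the highest, and the seminal vesicle list splits into 3 genes above 1.5 and a lower remainder.

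Among heat shock chaperones, the inducible Hsp70 genes had the highest ratios. All 9 genes passed and had ratios above 0, 3 were at least 2-fold higher against 0.933% of all genes, and the median was 0.59. Hspa1a had 7.17 and 25.2 TPM (1.68), Hspa1b 25.6 and 74.4 TPM (2.91-fold), and Hsph1, an Hsp110 chaperone, 25.7 and 55.1 TPM (1.07). Dnajb1, an Hsp40 partner, had 34.6 and 61.1 TPM (0.80). The more constant chaperone Hspa8 had 445 and 669 TPM (0.59), and the mitochondrial pair Hspd1 and Hspe1 had 0.19 and 0.14. Hspa1a and Hspa1b are near-identical copies, so uniquely mapped reads may miss much of both.

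The heat shock factor HSF1 binds inverted repeats of the unit GAA, which read GAANNTTC or TTCNNGAA where 2 units meet. The 250 bases before the RefSeq start (GRCm38.p6) were searched in the 7 of 9 list genes for which a promoter was held, on both strands, and both patterns read the same on either strand. GAANNTTC was present in 5 of the 7 genes, against 7.73% of 27025 genes, and TTCNNGAA in 3 of the 7, against 8.11%. The 2 patterns overlap in Hspd1 and Hspe1, whose ratios were the lowest of the list. The matches of Hspd1 and Hspe1 have the same arrangement and may be 1 shared stretch counted for both genes. As Hspa1a and Hspa1b are near-identical too, these counts are not of independent sequences. The matches of the 3 genes that were 2-fold higher are shown with the matched letters in capitals and 10 bases to either side.
Hspa1a: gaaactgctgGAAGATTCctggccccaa
Hspa1b: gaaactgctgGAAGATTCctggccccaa
Hsph1: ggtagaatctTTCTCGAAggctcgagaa
These lie at chr17:34972243-34972270, chr17:34959325-34959352 and chr5:149636352-149636379, all on the minus strand. The upstream windows of Hspa1a and Hspa1b were identical at 247 of 250 bases. A match is a description of the letters and not evidence of binding.

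Endoplasmic reticulum chaperones and their companions, which the cell induces when secretory proteins misfold, had smaller ratios. All 11 passed, 10 had ratios above 0 and the median was 0.29, and Herpud1, which takes part in degradation at the endoplasmic reticulum, was the 1 gene of 11 past 2-fold, against 0.933% of all genes, at 466 and 955 TPM (1.03). The stress-induced transcription factor Ddit3 had 44.2 and 74.3 TPM (0.74), Dnajb9 208 and 297 TPM (0.51), and the main chaperone Hspa5 1372 and 1921 TPM (0.48). Creld2 had 819 and 1000 TPM, Hsp90b1 1123 and 1274 TPM, and Calr 2135 and 2024 TPM, the 1 value below 0.
The ER stress element, a CCAAT box 9 bases from CCACG, was found in the upstream windows of 4 of the 10 list genes held (Calr, Creld2, Hsp90b1 and Hspa5), against 0.130% of genes. The related ER stress element II, in which ATTGG and CCACG are 1 base apart, was found in Herpud1, against 0.0370% of genes. The matches of Herpud1 and Hspa5, which had the largest ratios among the genes with each element, are shown in capitals with 10 bases to either side.
Herpud1: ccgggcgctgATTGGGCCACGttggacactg
Hspa5: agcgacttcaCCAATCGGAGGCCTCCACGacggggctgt
These lie at chr8:94386367-94386397 and chr2:34772015-34772053, both on the plus strand, and were searched on both strands.

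Glucocorticoid-responsive genes had a median of 0.56 with none of 8 past 2-fold. Fkbp5 led, followed by Tsc22d3 (31.2 and 50.2 TPM), Per1 (20.5 and 31.1 TPM), Zbtb16 (17.7 and 26.9 TPM) and Sgk1 (290 and 423 TPM). The metallothionein genes Mt1 (5441 and 5033 TPM) and Mt2 (3233 and 3016 TPM) were slightly below 0. Immediate early genes lay mostly below 0, with 8 of 9 on that side, a median of -0.21 and Jun lowest at 60.6 and 37.9 TPM (-0.67). Circadian clock genes had a median of 0.18, from -0.25 for Arntl to 0.68 for Per2. Cell cycle genes had a median of -0.14, which turned to 0.18 with a minimum of 5 TPM, and nuclear oxidative phosphorylation genes -0.03 over 76 genes, none of them 2-fold apart. Mitochondrial protein-coding genes had a median of 0.03, which was 0.42 when the 50 most abundant genes, most of its members among them, were left out. All 6 neuroendocrine genes listed were under 1 TPM in wild type and none passed.

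Several of these lists lay on the same side of 0 in other tissues. The heat shock median was 0.64 in liver, 0.55 in spleen, 0.47 in heart, 0.14 in MEFs, 0.10 in eyes and 0.05 in testes. The glucocorticoid median was 1.14 in liver, 0.79 in heart and 0.62 in spleen, above the prostate value, and 0.32 in eyes, 0.13 in MEFs and 0.10 in testes, below it. The macrophage median was 0.47 in liver and 0.43 in heart but -0.39 in MEFs, and the B and plasma cell median of prostate (1.27 over 6 genes that passed, 0.42 over all 8 listed) was the highest of the tissues, with heart lowest at -0.96. Whether the animals of different tissues were the same is not stated, and testes were normalised in a separate table without the mean count, so that the count filter was not applied there.

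**Figure D5:**
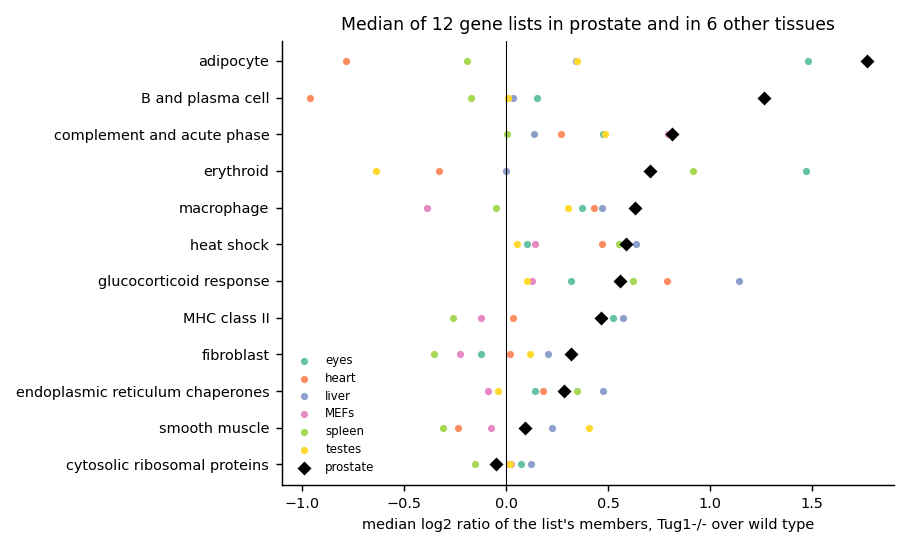
Median log2 ratio (Tug1-/- over wild type, x axis) of 12 gene lists (rows) over the members that passed the filter, in prostate (black diamonds) and in 6 other tissues (coloured points, absent where fewer than 3 members passed). The prostate value is the highest of the tissues shown for adipocyte (1.77), B and plasma cell (1.27), macrophage (0.63) and fibroblast (0.32) genes. It is also highest, by little, for complement and acute phase genes (0.81, beside 0.79 in MEFs). Heat shock (0.59) lies within the range of other tissues.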

How the data were processed

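Libraries were made from poly(A) RNA (TruSeq RNA v2) and sequenced with paired ends. Per the submitters' processing notes, base calls came from CASAVA 1.8.2 and tools included STAR, featureCounts and DESeq2. The authors aligned to GRCm38 with GENCODE annotation, counted uniquely mapped reads, and dropped a gene when each replicate held under 3 reads of it. The deposited tables hold the authors' group mean TPM and their mean normalised count of all samples of a tissue, which is a signal scaled by size factors and not a raw count. The fold changes, standard errors, statistics, p-values and calls of the authors' own comparisons were not used.

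Log2 ratios were computed in Python 3.11.15 with pandas 2.3.3 and numpy 2.4.6 from mean TPM plus 1, and the steps were tested on simulated data. Named genes are Tug1, genes within 1 Mb past 2-fold, the 15 highest and 15 lowest ratios among genes with at least 5 TPM in either genotype and a mean normalised count of at least 50, the 10 most abundant genes, and members of 33 gene lists. Other named genes were chosen after their values were seen. Members and lists were chosen with earlier results of these data known. Alternatives were another pseudocount, other filters, centring, rescaling, other fold limits and other windows. Brain, rescue and F1 hybrid testes samples were not analysed here. Single values of some list members are not reported here.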

Additional observations from a re-analysis of the deposited data

How the results depend on the processing

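No paired analysis was possible because the tables hold means of each genotype and no single samples. For the same reason no replicate could be left out. Counts of genes depended on the settings. Of genes at least 2-fold higher, 137 became 238 with a pseudocount of 0.1 TPM, 401 at 1.5-fold and 61 at 3-fold. Of genes at least 2-fold lower, 36 became 58 with that pseudocount, 78 with no filter, 94 at 1.5-fold, 23 at 3-fold and 19 without ribosomal and short RNAs, the last an alternative chosen after seeing the data. Genes within 1 Mb of Tug1 that were higher numbered 2, and 3 with a pseudocount of 0.1 TPM, without the 50 most abundant genes or within 2 Mb, 1 with a minimum of 5 TPM, with centring on the median or without ribosomal and short RNAs, 6 at 1.5-fold and 0 at 3-fold. Tug1 had a log2 ratio of -7.49 with a pseudocount of 0.1 TPM and -5.44 when rescaled without the 50 most abundant genes. The B and plasma cell median was 0.42 with no filter and 2.30 with a minimum of 5 TPM. Of 31 list medians, 6 turned sign under at least 1 of the 6 settings that bear on them, the largest of these being 0.14 in size, and none of the 14 over 0.2 did. The lack of single-sample values limits every comparison.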

Other observations

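The values here are of single genes that were at least 2-fold higher in Tug1-/- prostate and were chosen for that, so that they support nothing said of the gene lists. Car3, a carbonic anhydrase abundant in fat, had a mean of 40.7 TPM in wild type against 165 TPM in Tug1-/-. Thrsp, a regulator of lipid synthesis, had 2.41 and 11.7 TPM, Dgat2, which completes triglyceride synthesis, 4.24 and 14.4 TPM, and Pck1, which makes glycerol in fat, 2.11 and 8.13 TPM. Lpl (11.9 and 25.4 TPM), the fatty acid carrier Cd36 (11.9 and 26.5 TPM) and the factor Cebpa (6.28 and 13.9 TPM) were higher as well. The log2 ratio of Car3 was 1.55 in testes, 1.05 in eyes, 0.04 in MEFs, -0.29 in spleen, -0.74 in liver and -0.97 in heart. That of Pck1 ranged over the same tissues from 1.25 in eyes to -1.09 in heart, and that of Lpl from 1.10 in eyes to -0.26 in spleen.

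The next values are of single genes at low levels, again chosen after they were seen, and stand for no list. Foxi1, the transcription factor of proton-secreting cells, had 2.99 TPM in wild type against 13.4 TPM in Tug1-/-. The proton pump subunit genes Atp6v1g3 (2.43 and 7.34 TPM) and Atp6v0d2 (1.38 and 3.92 TPM) were past 2-fold. Atp6v1b1 (1.18 and 3.06 TPM) had a log2 ratio of 0.89. The far more abundant subunit gene Atp6v1c2 was not higher, at 875 and 827 TPM (-0.08). Values of the other subunits are not reported here. In testes the log2 ratios were -1.11 for Foxi1, -0.73 for Atp6v1g3, -1.31 for Atp6v0d2 and -0.22 for Atp6v1b1.

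Chosen in the same way, Chac1, which degrades glutathione, had 24.7 and 65.6 TPM, the peptide hormone gene Adm2 17.6 and 45.5 TPM, and Trib3 8.40 and 17.5 TPM, while Asns, which makes asparagine, had 325 and 356 TPM.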
